A study of Mus musculus with 4 samples.

Results

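Fabp4 and 9 other genes that bind, store, take up or release fatty acids were followed in mouse back skin epidermis with and without Ldb2. The genes were Fabp4, Fabp5, Lipe, Pnpla2, Lpl, Cd36, Pparg, Cidea, Cidec and Plin2, picked by symbol from the 17721 genes of the deposited table, and all 10 had values. The RNA came from back skin of C57BL/6 mice at postnatal day 63 that had been exposed to dispase, which frees the epidermis. There were 2 wild type libraries and 2 libraries from LDB2-/- mice, which lack the LIM domain adaptor gene Ldb2. The sources used here give neither the allele, the sex and the litter of the mice nor whether mice were pooled. P-values therefore measure the spread between these libraries, which may be technical.

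The libraries held between 54095522 and 68436842 counts. Ldb2 itself had 8 counts in wild type library 2 and 0 in the other libraries, too few to check the labels. Keratinocyte keratins were abundant in every library. Krt14, a keratin of basal keratinocytes, was at 5676 and 5098 FPKM in wild type and at 2346 and 2274 in LDB2-/-, where FPKM is the deposited fragment density, scaled for transcript length and library size.

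Fatty acids are carried inside cells by small binding proteins of the FABP family, of which Fabp5 is the epidermal and Fabp4 the adipocyte form. Lpl frees fatty acids from circulating lipoproteins and Cd36 takes them up. Plin2, Cidea and Cidec coat or enlarge the lipid droplets in which triglyceride is stored, and Pnpla2 and Lipe cut the stored triglyceride back into fatty acids. Pparg, a nuclear receptor activated by lipids, drives many of these genes in adipocytes and sebocytes, the lipid-filled cells of the sebaceous gland.

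The 10 genes were chosen with their difference between the genotypes already known, so their values are a description and no test of them is given. Fabp4, Fabp5 and Lipe were higher in LDB2-/-, and Lpl, Cd36, Pparg, Cidea, Cidec and Plin2 were lower. Pnpla2 overlapped between the genotypes. The spread ran from Fabp4, 388.5-fold higher, to Cidec, 7.38-fold lower. Without wild type replicate 2 the log2 fold change of Fabp4 moved from 8.60 to 9.24, and on log2(FPKM + 1) it was 7.94. On counts scaled for library size and composition, 9 of the 10 had both libraries of a genotype beyond both of the other, 3 higher and 6 lower in LDB2-/-. The same held for 82.5% of all 12400 genes tested, 40.8% higher and 41.7% lower. A share of 9 in 10 is thus close to that of all genes. The median log2 fold change of LDB2-/- over wild type was -1.49 over the 10 genes and -0.01 over all genes tested. All 10 passed the filter on low values, which asked for 2 libraries with an FPKM of at least 1, Cidec through wild type only. In bulk tissue, fewer cells of a type and less RNA per cell cannot be told apart.

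**Figure D1:**
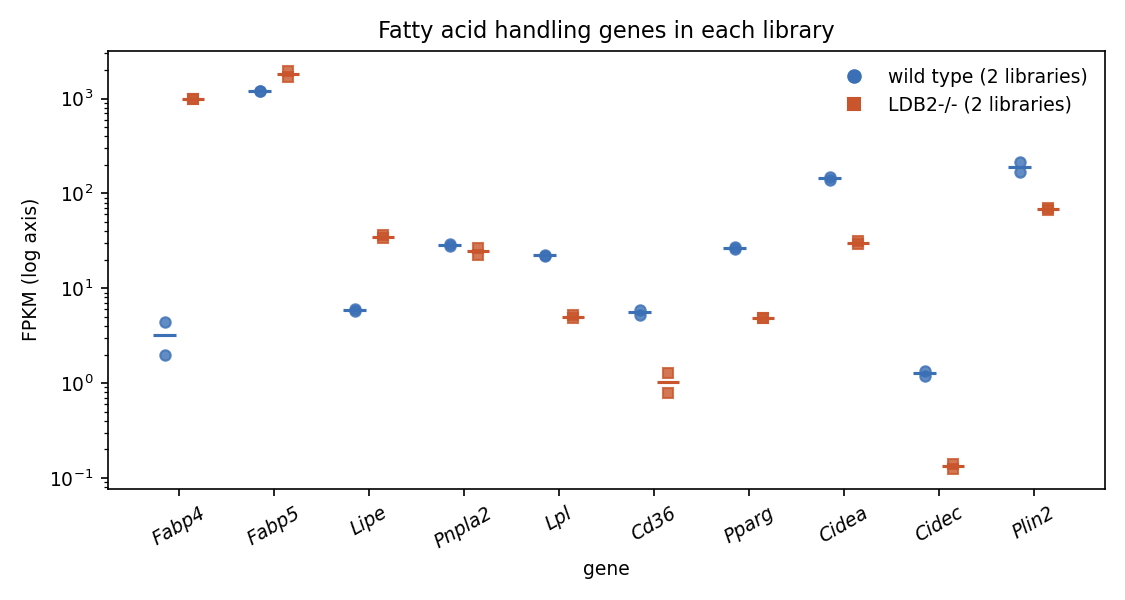
FPKM of the 10 fatty acid handling genes (horizontal axis) in each library, on a log axis. Circles are the 2 wild type libraries, squares the 2 LDB2-/- libraries, and short lines the genotype means. Fabp4 lies below 5 FPKM in wild type and near 987 FPKM in LDB2-/-, Pnpla2 lies at 22.2 to 29.6 FPKM in all 4, and the 6 genes from Lpl to Plin2 lie lower in LDB2-/-.

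Fabp4 (gene ID 11770, chromosome 3, 10204342 to 10208616, minus strand, protein coding; gene positions here and for the other genes are those of RefSeq on GRCm38.p6) was almost silent in wild type. Wild type library 1 gave 88 counts and library 2 gave 164, while LDB2-/- libraries 1 and 2 gave 34768 and 44111. Per length, that was 1.998 and 4.38 FPKM against 987.6 and 986.9. The genotypes were far apart, and wild type library 2 was 2.19 times library 1, while the LDB2-/- libraries differed by a factor of 1.00. After scaling, the mean was 1.86 ± 0.96 CPM (counts divided by the scaled library size) in wild type and 720.9 ± 29.0 in LDB2-/- (SD, n = 2 each), a log2 fold change of 8.60 (SE 0.43). This was rank 24 from the top among the 12400 tested genes. By FPKM, Fabp4 ranked 10806 and 9260 among the genes of the wild type libraries and 106 and 116 among those of the LDB2-/- libraries.

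Fabp5 (gene ID 16592, chromosome 3, 10012585 to 10016610, plus strand), the binding protein of epidermal keratinocytes, was the most abundant of the 10 genes in every library. It was at 1214 and 1211 FPKM in wild type and at 1975 and 1693 FPKM in LDB2-/-. Both LDB2-/- libraries were above both wild type libraries, with a log2 fold change of 0.91 (SE 0.15), a 1.88-fold difference. The ratio of Fabp4 to Fabp5 in FPKM was 0.00165 and 0.00362 in wild type, against 0.5001 and 0.583 in LDB2-/-. Fabp4 thus went from a trace beside Fabp5 to the same order of magnitude. Of the summed FPKM of the 10 genes, Fabp4 made up 0.123% and 0.264% in wild type, against 31.5% and 34.7% in LDB2-/-.

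Because Fabp4 and Fabp5 are related genes on the same chromosome, their coding sequences were compared to see whether reads could be exchanged between them. Over 384 aligned bases they were 66.9% identical, and the longest exact run they shared was 12 bases. The stretch of each coding sequence around that run is shown, Fabp4 from coding base 66 to 155 and Fabp5 from coding base 72 to 161, counted from the start codon, with the shared run in capitals. They were read from the GENCODE transcripts of the mm10 build.
Fabp4: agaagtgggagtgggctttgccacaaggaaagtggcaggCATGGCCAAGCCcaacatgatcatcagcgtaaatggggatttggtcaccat
Fabp5: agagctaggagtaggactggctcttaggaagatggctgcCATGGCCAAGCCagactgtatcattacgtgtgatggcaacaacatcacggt
None of the 847 different stretches of 50 bases in the Fabp4 messenger occurred in any other annotated gene's transcripts. Of the 938 in Fabp5, 198 (21.1%) also occurred in 5 other genes, led by Gm6166, so the level of Fabp5 is less certain than that of Fabp4. The read length and the treatment of reads with several matches are not given in the sources used here.

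Fabp4 lies in a cluster of FABP genes on chromosome 3, and the genes within 200 kb were read off the annotation after the values of Fabp4 had been seen. Fabp9, the testis form, lies 7.06 kb downstream of Fabp4 on the same strand. It was at 0 counts in both wild type libraries and at 119 and 164 in the LDB2-/- libraries. That was at least 96.1-fold higher per library total, without further scaling, taking 3 counts over the wild type group as the floor. The edgeR quasi-likelihood test called Fabp9 higher, but Fabp9 passed the filter only through LDB2-/-, so it had to differ. Fabp12, 35.6 kb on the other side, was likewise at 0 counts in both wild type libraries and at 51 and 50 in the LDB2-/- libraries, at least 34.3-fold higher by the same floor, and was too low to test. Pmp2, a myelin FABP 20.5 kb away, had 18 counts in LDB2-/- library 2 and 0 in the other libraries.

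Fabp9 counts were 0.342% and 0.372% of Fabp4 counts in the LDB2-/- libraries. Of the 648 stretches of 50 bases in Fabp9, 296 were shared with the overlapping gene Gm37389 and none with Fabp4. The genes beyond the FABP cluster did not pass the edgeR test. Log2 fold changes were -0.13 for Impa1 (SE 0.26, adjusted p = 0.685), -0.16 for Zfand1 (SE 0.15, adjusted p = 0.382) and 0.58 for Chmp4c (SE 0.22, adjusted p = 0.0643). The direction of Impa1 turned to 0.22 without LDB2-/- replicate 1, and it passed without LDB2-/- replicate 2 (-0.58, adjusted p = 0.0436). Chmp4c passed without LDB2-/- replicate 1 (adjusted p = 0.0391) and with DESeq2 (adjusted p = 0.0327), and Zfand1 with the library total as the only scaling (adjusted p = 0.0390) and with limma on log2(FPKM + 1) (adjusted p = 0.0327) and log2(FPKM + 0.1) (adjusted p = 0.0483). Slc10a5 and Gm9833 had at most 15 counts in any library.

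**Figure D2:**
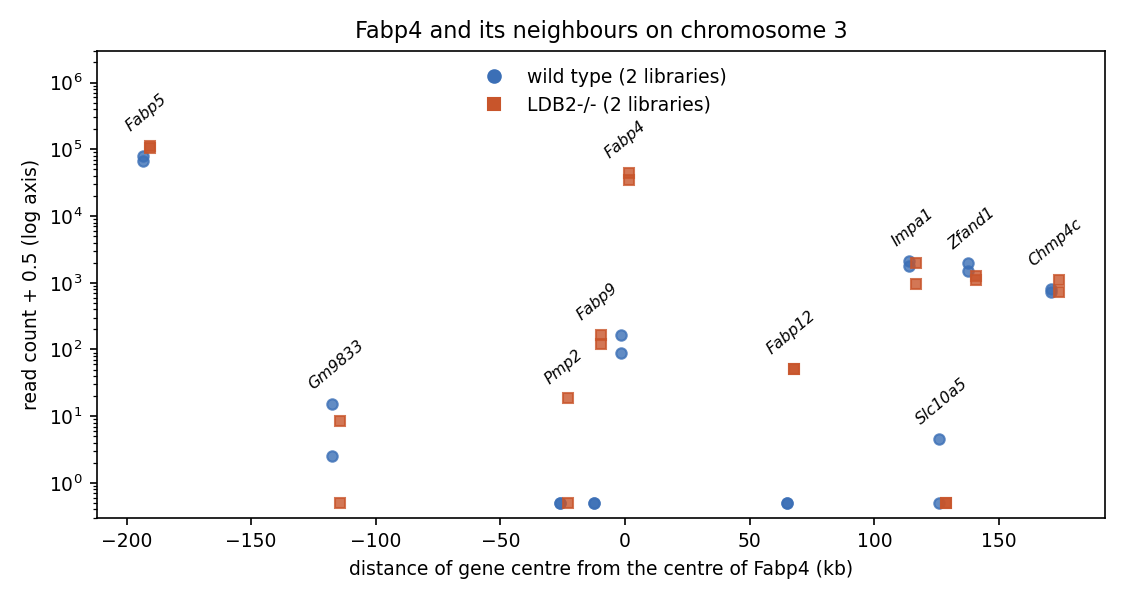
Read counts plus 0.5 (vertical log axis) of the genes within 200 kb of Fabp4, placed by the distance in kb of their centre from that of Fabp4. Circles are the 2 wild type and squares the 2 LDB2-/- libraries. Fabp4, Fabp9 and Fabp12 show counts far above wild type in both LDB2-/- libraries, while Impa1, Zfand1 and Chmp4c beyond them lie close together or overlap.

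The named tested genes with the pattern most like that of Fabp4 were led by hair follicle keratins. Likeness was the Euclidean distance between log2 CPM over the 4 libraries, each gene centred on its mean. The other genes of the opening, unnamed gene models and small RNAs were left out of the ranking. The nearest genes were Krt27 (distance 0.50), Krt25 (0.52) and Krt71 (0.65), keratins of the inner root sheath, followed by Serpina1e (0.66), a serine protease inhibitor, and Prr9 (0.68). Krt27 was at 12.6 and 44.1 FPKM in wild type and at 7243 and 8255 FPKM in LDB2-/-. Krt27, like Fabp4, was higher in wild type library 2 than in library 1, and so were Krt25 (20.7 and 71.5 FPKM), Krt71 (21.3 and 87.0 FPKM) and Prr9 (5.20 and 20.1 FPKM). The likeness rests on 4 libraries and is mostly the shared difference between genotypes.

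The remaining gene that was higher in LDB2-/- was Lipe (gene ID 16890, chromosome 7, 25379527 to 25398486), hormone-sensitive lipase. It was at 5.79 and 6.08 FPKM in wild type and at 36.3 and 33.8 FPKM in LDB2-/-. The genotypes did not overlap, and the log2 fold change was 2.88 (SE 0.11), 7.36-fold. Of its 5690 stretches of 50 bases, 10.2% also lay in the overlapping gene 4732471J01Rik. That gene had at most 24 counts in a library against 1114 or more for Lipe.

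Pnpla2 (gene ID 66853, chromosome 7, 141455188 to 141460743), adipose triglyceride lipase, which acts before Lipe on stored triglyceride, gave no clear difference. It was at 29.6 and 28.0 FPKM in wild type and at 22.2 and 26.9 FPKM in LDB2-/-. By FPKM both LDB2-/- libraries were thus lower. In scaled CPM it was at 72.0 and 66.7 in wild type, against 64.9 and 82.9 in LDB2-/-, with overlap, and the log2 fold change was 0.09 (SE 0.15). Its sign turned with the scaling. Under the library total alone the log2 fold change was -0.23, and it was -0.10 without LDB2-/- replicate 2 and 0.27 without LDB2-/- replicate 1. The ratio of Lipe to Pnpla2 in FPKM was 0.196 and 0.217 in wild type, against 1.63 and 1.26 in LDB2-/-. Lipe was thus below Pnpla2 in both wild type libraries and above it in both LDB2-/- libraries.

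Both genes of fatty acid entry were lower in LDB2-/-. Lpl (gene ID 16956, chromosome 8, 68880555 to 68906932) was at 21.7 and 22.6 FPKM in wild type and at 4.81 and 5.24 FPKM in LDB2-/-, a log2 fold change of -1.82 (SE 0.12). Cd36 (gene ID 12491, chromosome 5, 17781690 to 17888959) was at 5.20 and 5.93 FPKM in wild type and at 1.28 and 0.789 FPKM in LDB2-/-, a log2 fold change of -2.09 (SE 0.27). Neither gene overlapped between the genotypes. Cd36 differed 1.62-fold between the LDB2-/- libraries, the widest gap within LDB2-/- among the 10 genes.

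Pparg (gene ID 19016, chromosome 6, 115360879 to 115490404) was at 27.1 and 26.0 FPKM in wild type and at 4.85 and 4.82 FPKM in LDB2-/-. The libraries of each genotype lay close together, and the log2 fold change was -2.15 (SE 0.14), 4.44-fold lower. The table gives Pparg as a single row, so its promoter-specific forms were not separated.

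The lipid droplet genes were lower to different degrees. Cidea (gene ID 12683, chromosome 18, 67343564 to 67367794), a droplet fusion protein also known from sebocytes, was at 147.5 and 140.2 FPKM in wild type and at 31.3 and 29.4 FPKM in LDB2-/-. Its log2 fold change was -1.93 (SE 0.11). Its relative Cidec (gene ID 14311, chromosome 6, 113424634 to 113435760), the adipocyte form, was near the detection limit with 158 and 118 counts in the wild type libraries against 14 and 15 in the LDB2-/- ones. For Cidec the difference was -2.88 on the log2 scale (SE 0.39), and -0.997 on log2(FPKM + 1), where the added 1 shrinks changes of low genes. Cidea exceeded Cidec in FPKM by 109.1 and 119.6 times in wild type and by 221.9 and 235.8 times in LDB2-/-.

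Plin2 (gene ID 11520, chromosome 4, 86626910 to 86670217), the general droplet coat protein, differed least among the genes without overlap that were lower. It was at 167.6 and 214.0 FPKM in wild type and at 71.0 and 66.2 FPKM in LDB2-/-, a log2 fold change of -1.16 (SE 0.14).

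The order of the 10 genes by FPKM changed between the genotypes. In wild type it ran from Fabp5 through Plin2, Cidea, Pnpla2, Pparg, Lpl, Lipe, Cd36 and Fabp4 to Cidec, and the ranges of the neighbours Lipe and Cd36 overlapped. In LDB2-/- it ran from Fabp5 through Fabp4, Plin2, Lipe, Cidea, Pnpla2, Lpl, Pparg and Cd36 to Cidec, and the ranges of Lpl and Pparg overlapped. Fabp4 and Lipe moved up in the order, while Pparg, Lpl, Cidea and Pnpla2 moved down among others. The 10 genes together summed to 1622 and 1659 FPKM in wild type and to 3134 and 2847 FPKM in LDB2-/-, where most of the gain was that of Fabp4 and Fabp5.

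Promoter windows from RefSeq (GRCm38.p6, the assembly of mm10) were held for 6 of the 10 genes, in 10 windows of 300 bases each. None was held for Fabp4, Fabp5, Lpl and Cidea, so their promoters were not searched. The windows were searched for AGGTCA or its reverse complement TGACCT, the hexamer that nuclear receptors such as Pparg bind. Lpl, Cd36, Cidea, Cidec and Plin2 were lower together with Pparg, while Fabp4, Fabp5 and Lipe were higher. Whether Pparg acts on any of them was not tested. The hexamer was in 4 of the 10 windows, from the 3 genes Cd36, Plin2 and Pparg, with Pparg giving more than a single window. It was in 16.3% of all 32851 windows. Windows of the same gene are not independent, so no enrichment is read from these shares. The direct repeat of the hexamer with a spacer of 1 base, on either strand, which contains the hexamer, was in none of the 10 and in 0.0396% of all. The windows of the genes Plin2 (chr4:86670010-86670309, minus strand) and Cd36 (chr5:17835847-17836146, minus strand) are shown with the hexamer in capitals, which starts 218 and 228 bases before the start site.
Plin2: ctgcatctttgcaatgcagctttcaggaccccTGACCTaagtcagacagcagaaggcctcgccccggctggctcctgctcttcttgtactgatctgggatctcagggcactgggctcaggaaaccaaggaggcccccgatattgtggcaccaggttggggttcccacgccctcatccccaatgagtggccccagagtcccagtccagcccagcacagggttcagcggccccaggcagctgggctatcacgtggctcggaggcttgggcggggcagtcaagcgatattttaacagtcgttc
Cd36: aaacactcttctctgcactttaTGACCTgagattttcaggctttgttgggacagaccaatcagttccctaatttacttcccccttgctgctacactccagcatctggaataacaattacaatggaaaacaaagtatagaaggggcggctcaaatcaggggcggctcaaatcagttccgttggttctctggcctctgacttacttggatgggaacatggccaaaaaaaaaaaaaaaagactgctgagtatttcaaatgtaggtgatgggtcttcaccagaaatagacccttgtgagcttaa

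To set the 10 genes in their pathway, 9 lists of other fatty acid handling genes were counted in the edgeR test of LDB2-/- against wild type. The lists held 183 different genes with values, of which 155 were tested. In LDB2-/-, 32 rose, 80 fell and 43 did not pass. These counts include 5 lower genes that passed the filter on low values only through wild type and 2 higher ones that passed it only through LDB2-/-, which had to differ. Those of them named below are given by their values, with no p. Of all tested genes 57.2% passed, 28.4% higher and 28.8% lower, against 20.6% higher and 51.6% lower over the lists. The median log2 fold change was -0.55 over the lists and -0.01 over all tested genes. With the library total alone, which shifted the median of all tested genes to -0.33, only 30.6% of all calls were higher instead of 49.6%, and 20 of the listed genes rose.

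**Figure D3:**
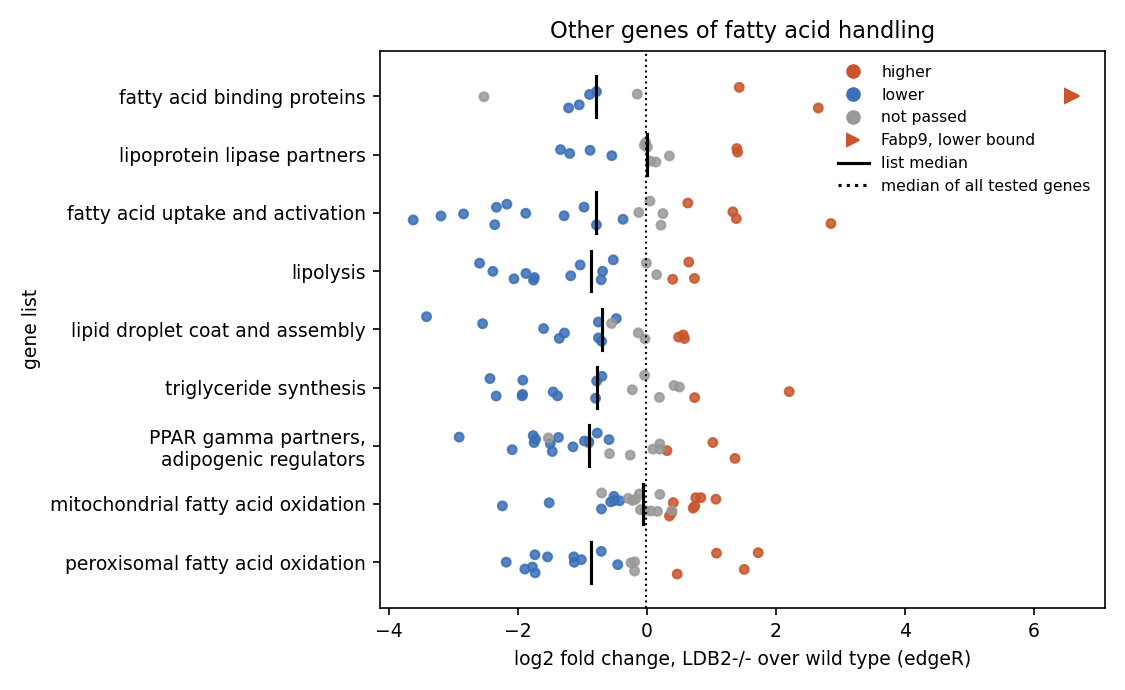
Log2 fold change of LDB2-/- over wild type (horizontal axis, edgeR) for each tested gene of 9 fatty acid handling lists, without the 10 genes of the opening. Dots are genes, coloured by whether they passed the test higher, lower or not, black bars are list medians and the dotted line is the median of all tested genes. Fabp9, with 0 counts in wild type, is drawn as a triangle at its lower bound of 6.59, taken on library totals without the scaling of the other points. The medians of 7 lists lie between -0.90 and -0.70, while those of lipoprotein lipase partners (-0.01) and mitochondrial oxidation (-0.06) lie near the line.

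Other fatty acid and acyl-CoA binding proteins split. Of 9 tested genes 3 rose and 4 fell, with a median of -0.78. Beside Fabp9, the brain form Fabp7 was at 57 and 21 counts in wild type libraries and at 231 and 138 in LDB2-/- ones and rose (log2 fold change 2.66, SE 0.57, adjusted p = 0.0105). The acyl-CoA binding protein Dbi rose by 1.43 (SE 0.17, adjusted p = 0.00127), from 401.7 ± 63.6 to 866.6 ± 53.98 FPKM (SD, n = 2 each). The bile acid binding protein Fabp6, with 143 and 86 counts in wild type libraries against 29 and 0, did not pass (-2.53, SE 1.17, adjusted p = 0.113). Fabp6 passed without LDB2-/- replicate 1 (adjusted p = 0.000297) and without LDB2-/- replicate 2 (adjusted p = 0.0409), in the same direction, and with limma on log2(FPKM + 1) (adjusted p = 0.00802).

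Genes of fatty acid uptake and activation mostly fell, 11 of 19 tested against 4 that rose, with a median of -0.78. The caveolae genes Cav2 (-3.62, SE 0.20, adjusted p = 0.000156) and Cav1 (-3.19, SE 0.13, adjusted p = 8.65e-05) fell most. Cav1 went from 83.1 ± 4.995 to 7.25 ± 0.45 FPKM. The acyl-CoA synthetase Acsl4 fell by 2.85 (SE 0.13, adjusted p = 9.68e-05), from 32.4 ± 3.75 to 3.54 ± 0.15 FPKM. The lipoprotein receptor Scarb1, a relative of Cd36, rose by 2.85 (SE 0.17, adjusted p = 0.000169), from 4.54 ± 0.76 to 26.0 ± 2.01 FPKM. Scarb1 and Cd36 thus differed in opposite directions.

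Partners of Lpl were divided, with 2 of 12 tested genes higher, 4 lower and 6 that did not pass. The median was -0.01, as over all tested genes, of which 28.4% were called higher and 28.8% lower. The convertase Pcsk6 (1.40, SE 0.15, adjusted p = 0.000900) and the sorting receptor Sort1 (1.39, SE 0.11, adjusted p = 0.000332) rose. The apolipoprotein Apoc1 fell (-1.20, SE 0.13, adjusted p = 0.000968). Apoc1 was at 771.1 ± 49.6 FPKM in wild type and 267.7 ± 10.5 in LDB2-/-.

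In the lipolysis list 11 of 16 tested genes fell and 3 rose, with a median of -0.87. The carboxylesterase Ces1d fell by 2.39 (SE 0.13, adjusted p = 0.000145) and the lipase Pnpla3 fell by 1.88 (SE 0.12, adjusted p = 0.000192). The beta-3 adrenergic receptor Adrb3, which passed the filter through wild type only, was at 2.42 and 2.31 FPKM there and at 0.482 and 0.424 in the LDB2-/- libraries. Pnpla3, a close relative of Pnpla2, went from 25.5 ± 1.59 to 5.56 ± 0.48 FPKM. Lipe was thus higher in LDB2-/- while most other genes of its list were lower. The 3 that rose were Prkaca, Prkar2b and Aqp3, chosen here after their values were seen. Without wild type replicate 2, or with the library total alone, 1 gene of the list rose, and with limma on either FPKM scale 0 rose.

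Genes of lipid droplet coat and assembly fell in 9 of 15 tested cases and rose in 3, with a median of -0.70. The droplet enzyme Ldah fell by 1.60 (SE 0.11, adjusted p = 0.000256) and Fitm2, which helps droplets form, by 1.36 (SE 0.22, adjusted p = 0.00386). The droplet protein Mettl7b fell from a low level (-2.55, SE 0.52, adjusted p = 0.00857). Hsd17b13, another droplet protein, passed the filter through wild type only, with 146 and 100 counts there against 17 and 0, and was not called without wild type replicate 1 or with no filter. With the library total alone 0 genes of this list rose.

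Of the other perilipins, chosen here after their values were seen, only Plin3 was tested, and it fell by 0.48 (SE 0.11, adjusted p = 0.0138). Plin4 had 334 and 383 counts in wild type libraries against 41 and 54, and Plin5 had 46 and 41 against 3 and 0, both too low in FPKM to test. Plin1, the perilipin of adipocytes, had at most 3 counts.

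Triglyceride synthesis genes fell in 10 of 17 tested cases and rose in 2, with a median of -0.78. The acyltransferase Gpam fell by 2.44 (SE 0.26, adjusted p = 0.000885) and the glycerol phosphate dehydrogenase Gpd1 by 2.34 (SE 0.16, adjusted p = 0.000249). Soat1, counted in this list although it acts on sterols, fell by 1.94 (SE 0.13, adjusted p = 0.000219). The phosphatidate phosphatase Lpin3 rose by 2.20 (SE 0.12, adjusted p = 0.000141), from 9.66 ± 0.30 to 35.3 ± 3.85 FPKM.

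Partners and relatives of Pparg were lower as well. Of 23 tested genes 13 fell and 3 rose, with a median of -0.90. The related receptor Ppara was at 6.50 ± 1.78 FPKM in wild type and 0.680 ± 0.0045 in LDB2-/-, and the oxysterol receptor Nr1h3 at 2.89 ± 0.37 and 0.496 ± 0.072. Both passed the filter through wild type only. The zinc finger gene Zfp467 (-1.76, SE 0.23, adjusted p = 0.00183) and Klf5 (-1.75, SE 0.18, adjusted p = 0.000870), a factor of epithelial and fat cell differentiation, fell. Ppard, the other receptor of the family and chosen here after its values were seen, rose by 1.02 (SE 0.10, adjusted p = 0.000774). Ppard went from 17.8 to 28.9 FPKM on average, so that in LDB2-/- it exceeded the 4.83 FPKM mean of Pparg.

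Fatty acid oxidation genes were counted by compartment. Of all tested genes 28.4% were called higher and 28.8% lower, and the mitochondrial counts were near those shares. Of 26 tested mitochondrial genes 8 rose and 7 fell, with a median of -0.06. The kinase Pdk4 (-2.24, SE 0.19, adjusted p = 0.000447) and the dehydrogenase Acadsb (-1.52, SE 0.17, adjusted p = 0.000963) fell. The electron carrier Etfb (1.07, SE 0.16, adjusted p = 0.00301) and Cpt1a (0.83, SE 0.12, adjusted p = 0.00258), the entry enzyme of mitochondrial oxidation, rose. Cpt1a no longer passed with limma on log2(FPKM + 0.1) (adjusted p = 0.0504). The mitochondrial split followed the scaling, with 4 higher and 13 lower when the library total was used alone. With each library left out in turn 4 to 8 rose, the fewest without LDB2-/- replicate 2 and 5 each without wild type replicate 2 and without LDB2-/- replicate 1.

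Of 18 tested peroxisomal genes 11 fell and 4 rose, with a median of -0.86. Ehhadh fell by 2.18 (SE 0.23, adjusted p = 0.000837), the division factor Pex11a by 1.89 (SE 0.29, adjusted p = 0.00320), the acyl-CoA oxidase Acox3 by 1.78 (SE 0.16, adjusted p = 0.000528) and the thiolase Acaa1b by 1.74 (SE 0.14, adjusted p = 0.000424). Acot8 and Crot, chosen here after their values were seen, were among those that rose. Acot4, also counted, passed the filter through LDB2-/- only. Without either wild type library, or without LDB2-/- replicate 2, 2 peroxisomal genes rose. Whether the mitochondrial and peroxisomal lists differ from each other was not tested.

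Markers of the cell types that could carry these genes moved with the genotype. Their counts without overlap were judged on FPKM and include genes too low to test. The 82.5% above was on scaled CPM over tested genes only, so it is no direct yardstick here. No such share on FPKM is given, so a count without overlap is not read as a result about a list. FPKM leans towards lower values in LDB2-/-. With limma on log2(FPKM + 1) the median gene lay at -0.29, and 30.5% of calls were higher, against 49.6% with edgeR. This lean favours counts of lower markers over counts of higher ones. Some adipocyte markers, among them Adrb3, Plin1 and Plin4, were also in the pathway lists, and so was the sebocyte marker Soat1. Markers of mature adipocytes, in which Fabp4, Lipe and Cidec are abundant, ranged from near absent to clearly counted. Adig, Adrb3, Slc2a4 and Plin4 had at least 310 counts in each wild type library. Adipoq, Cfd, Retn and Plin1 had at most 17 counts in any library, and 7 of the 12 adipocyte markers with values had 20 or fewer counts in every library. The summed FPKM of the 12 was 26.1 and 23.4 in wild type, against 6.27 and 7.32 in LDB2-/-, most of it from Adig (20.9 and 18.003 FPKM, then 3.69 and 5.47). Of the 12, 5 were lower without overlap and 2 were higher, among them Car3 with 7 and 0 counts in wild type libraries and 77 and 38 in LDB2-/- ones.

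Endothelial cells of capillaries are another known source of Fabp4. In LDB2-/-, 12 of 14 endothelial markers were higher without overlap, and Kdr was lower, at 0 FPKM in both LDB2-/- libraries. Only 7 of the 14 endothelial markers passed the filter on low values, so many of these counts lie near the detection limit. The summed FPKM of the 14 was 3.81 and 5.29 in wild type, against 32.1 and 33.6 in LDB2-/-. Eng, an endothelial receptor, was at 0.375 and 0.415 FPKM in wild type and at 5.55 and 5.77 in LDB2-/-. Macrophage markers were higher without overlap for 11 of 14, from 87.3 and 83.7 FPKM to 150.7 and 177.4 FPKM summed. Csf1r (16.5 and 17.9 FPKM, then 6.78 and 7.41) and Adgre1 were lower without overlap. Fibroblast markers were higher for 8 of 10, from 29.0 and 22.7 to 80.5 and 94.2. Skeletal muscle markers were higher for 10 of 11, from 6.82 and 4.93 to 49.1 and 42.9. The filter was passed by 11 of the 14 macrophage, 8 of the 10 fibroblast and 8 of the 11 skeletal muscle markers. The part of these cells and of adipocytes in the Fabp4 and Lipe levels was not tested.

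Hair markers moved most. All 14 markers of the inner root sheath and hair matrix were higher without overlap, from a summed 93.1 and 319.8 FPKM in wild type to 43949 and 47654 in LDB2-/-. Wild type library 2 was above library 1, as for Fabp4. The summed endothelial and sebocyte lists had the same order, and the other marker lists had the reverse. The part of the hair lineages in the Fabp4 level was not tested.

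Sebocyte markers moved with the lower genes. Of 13 with values 11 were lower without overlap and Fads2 and Prdm1 were higher, and the summed FPKM was 3159 and 3754 in wild type, against 1127 and 1040 in LDB2-/-. Scd1, the desaturase of the sebaceous gland, was at 824.8 and 1206 FPKM in wild type and at 165.3 and 138.8 in LDB2-/-. All 10 basal keratinocyte markers were lower without overlap (14047 and 12673 FPKM summed, then 5038 and 4856), as were 8 of 9 suprabasal ones (20943 and 17875, then 2706 and 2435), with Ivl higher. The part of sebocytes and keratinocytes in the lower levels of Pparg, Cidea, Plin2, Lpl and Cd36 was not tested.

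**Figure D4:**
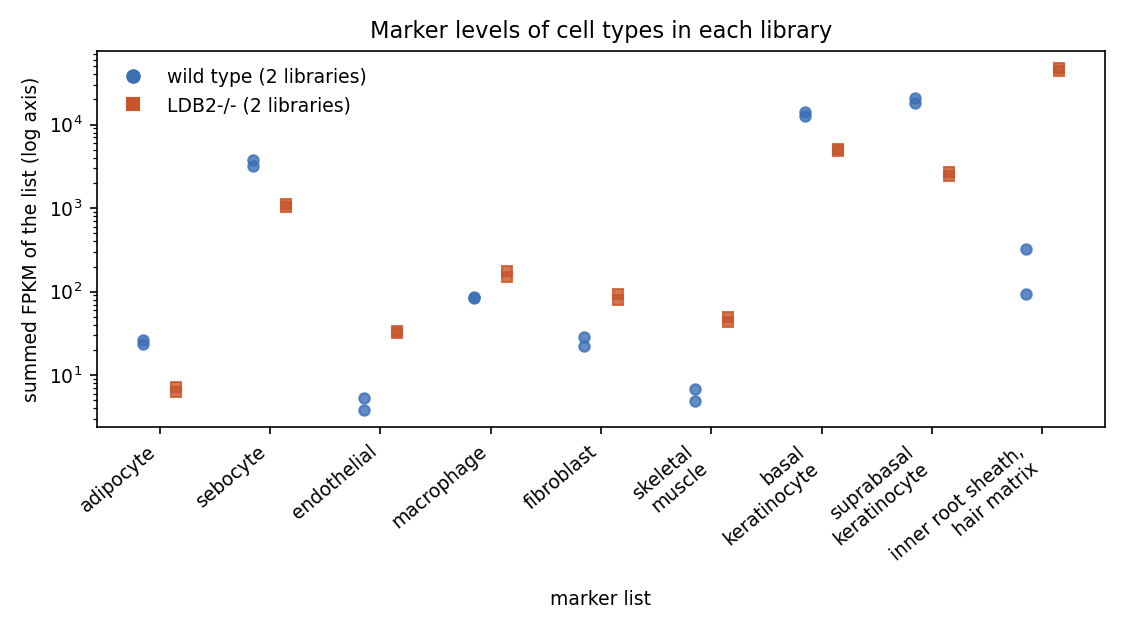
Summed FPKM (vertical log axis) of 9 cell type marker lists in each library, with circles for the 2 wild type and squares for the 2 LDB2-/- libraries. The inner root sheath and hair matrix list shows the widest gap, from 93.1 and 319.8 to 43949 and 47654 FPKM, while the adipocyte, sebocyte and keratinocyte lists lie lower in LDB2-/-.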

How the data were processed

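RNA of 4 libraries was compared, 2 wild type and 2 LDB2-/-. Per the labels' protocols, Trizol extracts of dispase-treated skin went into Illumina TruSeq libraries. Tools listed in the submitters' processing notes are HISAT2 2.1.0, StringTie 1.3.4d and bcl2fastq 1.8.4, with the build mm10 and no settings or strandedness. The authors deposited read counts per gene and FPKM, per the file headers. A further 4 deposited per-library columns were not used.

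The 12400 of 17721 genes that reached an FPKM of 1 in 2 or more libraries were tested on the counts with the edgeR quasi-likelihood test, TMM scaling, two-sided, with Benjamini-Hochberg adjustment over all tested genes and a threshold of 0.05. The SE is the one implied by the F statistic. Scaled CPM values (counts relative to library size) use TMM factors from 0.872 to 1.13. Overlap between genotypes was judged on these values, and for marker lists on FPKM. Library totals of 54095522 to 68436842 counts limit single values by counting error only slightly, except for genes under about 20 counts.

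The 10 genes and all lists were chosen with earlier results of these data known. The named genes are the 10, per list the 4 tested genes furthest from 0 in log2 fold change, the 3 markers per list with the highest mean FPKM and the 5 genes nearest to Fabp4, and others are stated where they occur. A few genes that this rule names are not reported here. Alternatives were the DESeq2 test, DESeq2 size factors, scaling by library total, other filters, limma on log2(FPKM + 1) and log2(FPKM + 0.1), the replicate number as a block and each library left out. The edgeR test was also run on simulated data with 2 libraries per group. There, false calls made up more than the nominal share of all calls and most small changes were missed. The simulation changed a far smaller share of genes than the 57.2% called here, so these shares need not hold for these data. Adjusted p-values near the threshold are uncertain. Software was edgeR 4.0.16, DESeq2 1.42.0 and limma 3.58.1 in R 4.3.3, with Python 3.11.15, pandas 2.3.3, Biopython 1.88 and matplotlib 3.10.9.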

Additional observations from a re-analysis of the deposited data

How the results depend on the processing

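Each result was recomputed under 12 other settings. The log2 fold changes of 9 of the 10 genes kept their sign in every setting that gave a value, with Fabp4 between 7.94 and 9.24, Fabp5 between 0.59 and 0.98 and Lipe between 2.38 and 2.91. Pnpla2 reversed to -0.23 with the library total alone, -0.23 with limma on log2(FPKM + 1), -0.24 with limma on log2(FPKM + 0.1) and -0.10 without LDB2-/- replicate 2, and was 0.27 without LDB2-/- replicate 1. Impa1 reversed to 0.22 without LDB2-/- replicate 1 and was -0.58 without LDB2-/- replicate 2. The cause was not tested. Hsd17b13, which passed the filter through wild type only, was not called with no filter or without wild type replicate 1. With a mean FPKM of 5 or more, Cd36 and Cidec were not tested.

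Counts followed the scaling. The genes called higher were 2248 with the library total alone, 2314 with limma on log2(FPKM + 1) and 2146 with limma on log2(FPKM + 0.1), against 3521. The listed genes called higher were 20, 19 and 17 in the same order, against 32. Of them, lipolysis genes were 1, 0 and 0, droplet genes 0 in each, and mitochondrial genes 4, 4 and 3, with 13, 14 and 13 mitochondrial genes lower. Peroxisomal genes called higher were 2 with the library total alone, 2 with no filter and 1 with a mean FPKM of 5 or more, which tests fewer genes and left 1 binding protein higher. Triglyceride synthesis genes called higher were 1 with limma on log2(FPKM + 0.1). FPKM is scaled by library size, as the library total is, and the shift of the median shows in all 3. With each library left out in turn, 2707 to 3264 genes were called higher, 24 to 27 listed genes rose and 70 to 80 fell, and lipolysis genes called higher were 1 to 2, mitochondrial 4 to 8 and peroxisomal 2 to 4.

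Shared replicate numbers are not stated to mark a litter or batch, so they were not treated as pairs. Same-numbered libraries did not deviate together (correlation -0.145 over 12400 genes). With 2 libraries per genotype this cannot exclude a shared litter or batch. With the replicate number as a block, 2916 genes rose and 3176 fell, 23 listed genes rose and 74 fell. The block left 1 lipolysis gene, 5 mitochondrial genes and 2 peroxisomal genes higher and 4 mitochondrial genes lower, and Fabp6 passed (adjusted p = 0.0411, edgeR). The crossed pairing, added after seeing the data, gave 3678 higher and 3591 lower, with 31 and 81 listed genes.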

Other observations

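Cebpb, a partner of Pparg in fat cell differentiation, was at odds between the LDB2-/- libraries. Its wild type libraries had 19720 and 16686 counts, with 13698 in LDB2-/- library 1 and 257 in LDB2-/- library 2, and it did not pass the edgeR test (log2 fold change -0.90, SE 1.42, adjusted p = 0.609).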
